A study of Mus musculus with 48 samples.

Results

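The genes of Polycomb repressive complex 2 (PRC2) were followed through MKOS and OKMS reprogramming of mouse cells. The 8 genes *Ezh1*, *Ezh2*, *Eed*, *Suz12*, *Jarid2*, *Mtf2*, *Phf19*, and *Aebp2* were taken by symbol from a count table of 24264 transcripts, in which each has a single entry. All 8 passed the filter on low counts, which kept 15630 transcripts. *Phf19* passed with only 1297 reads over all 48 libraries.

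RNA was sequenced from 48 libraries of 20 conditions with STRT, a method that reads the 5′ end of each transcript. Reprogramming was driven by either of 2 doxycycline-inducible polycistronic cassettes, whose names give the order of *Myc* (M), *Klf4* (K), *Oct4* (O), and *Sox2* (S) on one transcript. The OKMS cassette carries a shorter *Klf4*. Each cassette was targeted, with an rtTA driven by the CAG promoter, into an intron of *Sp3* in TNG ESCs, which have GFP in the *Nanog* locus, and transgenic MEFs were made from chimeric embryos of these cells. The sorted populations come from such MEFs, with the reporter and a cassette, which had been cultured with doxycycline and vitamin C, diluted with WT MEFs, for 10 or 15 days by the labels. The study's methods describe sorting on day 10, and the labels do not say which libraries had which time, so culture time may differ between the sorted populations. Cells were sorted for E-CAD, CD44, ICAM1, and *Nanog*-GFP. The number 2 stands for the CD44low ICAM1low gate, 3 for the CD44low ICAM1high gate, and NG- or NG+ for *Nanog*-GFP. The 8 sorted populations had 3 libraries each, namely MKOS and OKMS E-CAD+ 2NG-, 3NG-, and 3NG+ cells and OKMS E-CAD- 2NG- and 3NG- cells. The other 12 conditions had 2 libraries each. They were WT, MKOS, and OKMS MEFs, E14 and TNG ESCs, TNG MKOS and TNG OKMS ESCs with an uninduced cassette, MKOS and OKMS iPSCs grown in 2i or with doxycycline withdrawn (-dox), and D6, an iPSC line with a single *piggyBac* MKOS transposon. The labels do not say whether libraries of a condition came from separate cultures, so the tests measure the spread between libraries, which may be technical.

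PRC2 methylates lysine 27 of histone H3 and keeps developmental genes silent. *Ezh1* and *Ezh2* encode its alternative catalytic subunits, and *Eed* and *Suz12* encode the core partners that both need. *Jarid2* and *Aebp2* encode the accessory subunits of the form called PRC2.2, and *Mtf2* and *Phf19* encode Polycomb-like subunits of the form called PRC2.1, both of which help to place the complex on CpG islands. *Ezh2* is known as the form of proliferating cells and *Ezh1* as the form of resting cells. ESCs can be kept without PRC2, but they then fail to differentiate normally.

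The promoters of 4 members are shown because these genes carry the contrasts described below: the catalytic pair, whose ratio was highest in OKMS E-CAD- 2NG- cells, *Suz12*, which was higher in 2i medium, and *Mtf2*, which had one of the largest rises between MEFs and ESCs. The sequences are the 100 bases before a RefSeq start of the gene in GRCm38.p6, written 5′ to 3′ on the strand of the gene. Capitals mark the letters CCAATC (an NF-Y motif), and also the letters GGGCGGG (an SP and KLF motif). Both were read on either strand.
Ezh2: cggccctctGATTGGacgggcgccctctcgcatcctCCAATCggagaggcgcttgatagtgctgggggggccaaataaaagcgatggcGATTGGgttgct
Ezh1: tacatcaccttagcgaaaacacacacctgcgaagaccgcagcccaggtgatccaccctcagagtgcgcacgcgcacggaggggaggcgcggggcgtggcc
Suz12: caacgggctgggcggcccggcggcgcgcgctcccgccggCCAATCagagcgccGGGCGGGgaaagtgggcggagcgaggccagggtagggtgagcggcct
Mtf2: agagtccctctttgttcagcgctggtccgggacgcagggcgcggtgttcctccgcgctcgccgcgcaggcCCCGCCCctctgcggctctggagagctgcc

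The windows, in GRCm38, lie at chr6:47595031-47595130 on the minus strand for *Ezh2*, at chr11:101226464-101226563 on the minus strand for *Ezh1*, at chr11:79993006-79993105 on the plus strand for *Suz12*, and at chr5:108065574-108065673 on the plus strand for *Mtf2*. The *Ezh1* and *Suz12* windows lie outside the RefSeq gene. Transcripts of *Ezh2* and *Mtf2* with a start further upstream place all 100 bases of the *Ezh2* window and the last 14 of the *Mtf2* window inside the RefSeq gene, and the latter in its first exon. Matched by sequence to the older build NCBIM37, the 4 windows overlapped 0 exons of GENCODE M1, and that of *Ezh2* lay in an intron. The *Ezh2* window held 3 CCAATC matches, the *Suz12* window 1 CCAATC and 1 GGGCGGG match, the *Mtf2* window 1 GGGCGGG match, and the *Ezh1* window neither. The 2 motifs share no letters at any of these positions. Over 32851 promoter windows of the same length, 8.62% held CCAATC at least once, 0.0639% held it 3 times or more, 17.1% held GGGCGGG, and 76.0% held neither. Of 4 E2F letter strings searched in windows of 250 bases before the start, only TTTCCCGC occurred in a member, namely in *Suz12* and *Phf19*. That string occurred in 0.895% of all promoters, and any of the 4 in 1.86%. These matches describe letters and are not shown to be bound. In the same build the 4 other genes lie on chromosome 7 at chr7:89954654-89980976 (*Eed*, minus strand), chromosome 13 at chr13:44730774-44921643 (*Jarid2*, plus strand), chromosome 2 at chr2:34893752-34914353 (*Phf19*, minus strand), and chromosome 6 at chr6:140622454-140678472 (*Aebp2*, plus strand).

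Libraries held between 1429717 and 14174725 reads on transcripts. Levels are given as CPM, the usual scaling of a transcript's reads to all transcript reads of its library. Since each transcript is read at its 5′ end, its length does not enter. A count of 3 reads corresponded to 0.212 to 2.10 CPM, a limit that covers counting error only, since PCR copies were not removed. The labels were checked with marker genes. *Col1a1* was at a median of 773 CPM in MEFs and 0.658 CPM in ESCs, *Cdh1*, which encodes E-CAD, at 0.189 and 121 CPM, and *Nanog* had no reads in MEFs and 76.9 CPM in ESCs. The sum of the 10 fibroblast markers was 3524 to 5940 CPM in MEFs and 6.30 to 13.01 CPM in ESCs. Replicate 1 of TNG OKMS ESCs stood apart: it had the highest *Ezh2*, *Eed*, *Mtf2*, and *Aebp2* levels of all 48 libraries, and also the smallest mitochondrial share of reads, 3.33%.

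In ESCs, 7 of the 8 PRC2 genes were higher than in MEFs, and *Aebp2* was the exception. A gene was called when its FDR, the Benjamini-Hochberg adjusted p of edgeR's quasi-likelihood test over all transcripts tested, was at most 0.05. In this comparison 60.1% of the 15630 transcripts were called, 29.6% as higher and 30.4% as lower in ESCs, so that a call by itself was common. Here and below, overlap of libraries between groups only describes the values. The share of all transcripts without overlap was not counted. The median log2 fold change was 2.21 over the 8 genes and 0.00 over all transcripts. The levels of the 8 genes summed to 92.9 to 196 CPM in the 6 MEF libraries (median 122) and to 557 to 1257 CPM in the 8 ESC libraries (median 663). All 7 calls were kept when any of the 14 libraries was left out, TNG OKMS replicate 1 included. In bulk RNA, fewer cells that express a gene and less RNA per cell cannot be told apart.

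**Figure D1:**
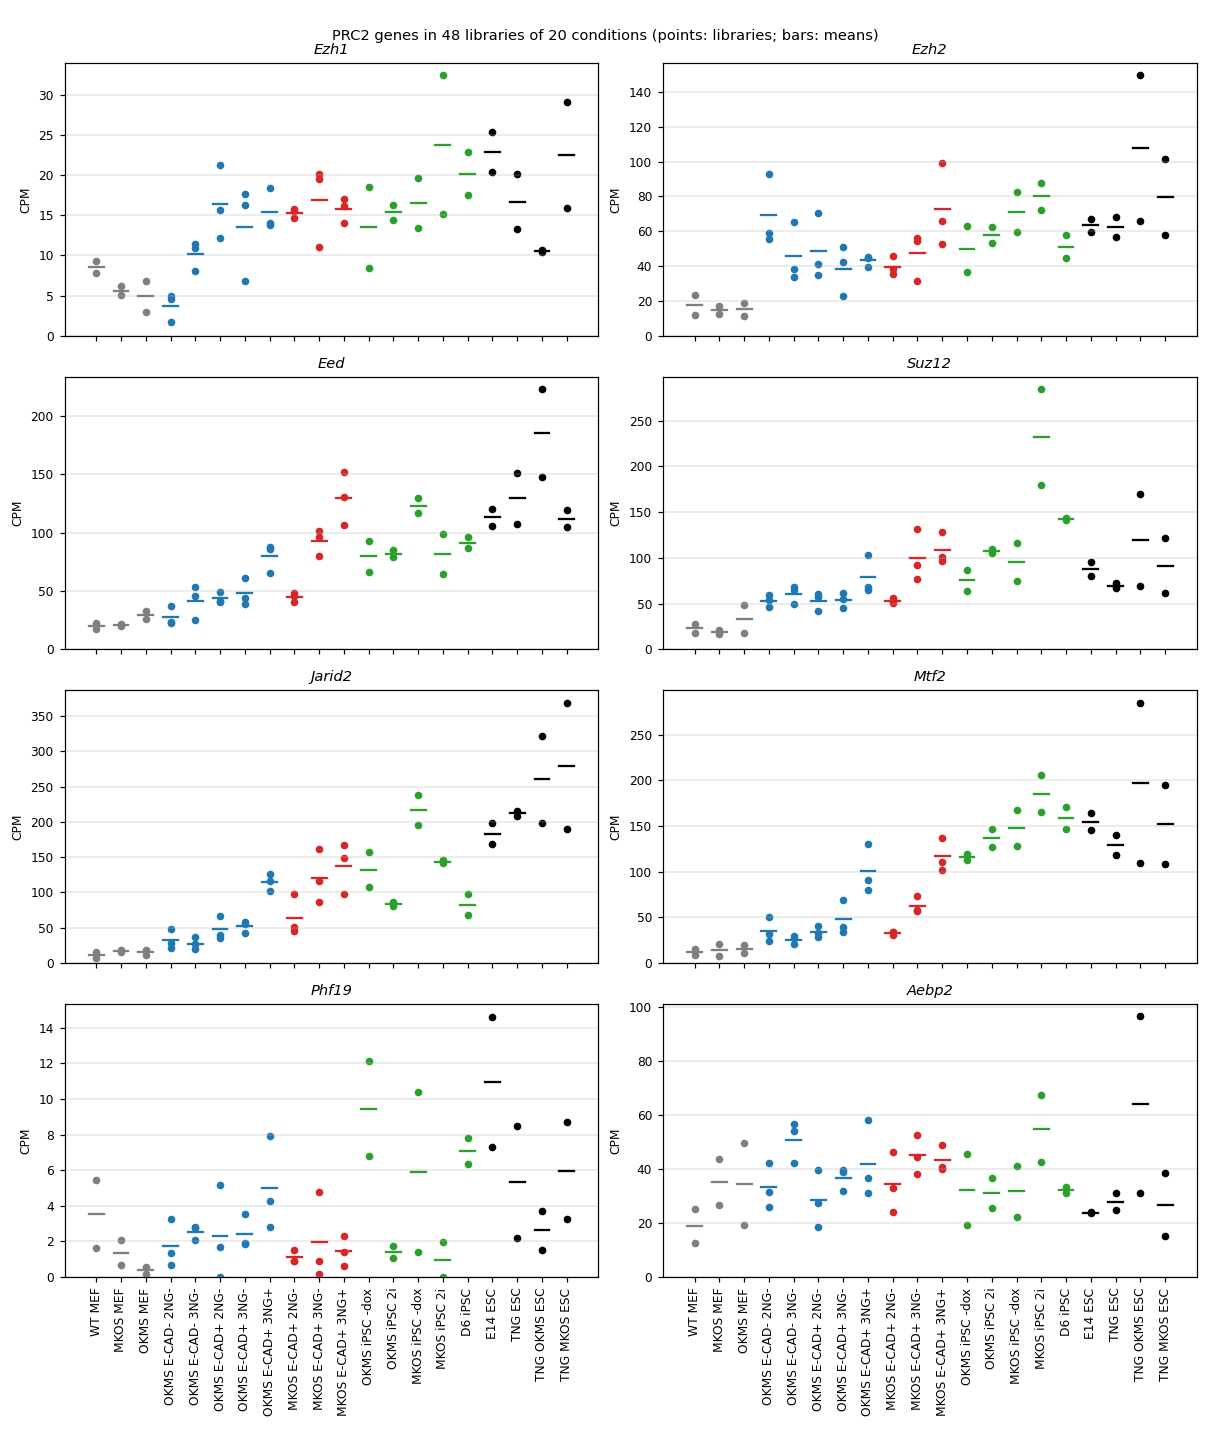
CPM of the 8 PRC2 genes (vertical axes, linear, each with its own scale) in every library of the 20 conditions (horizontal axis), with points for libraries and bars for condition means. MEFs are grey, OKMS populations blue, MKOS populations red, iPSCs green, and ESCs black. *Jarid2* and *Mtf2* climb from below 22 CPM in MEFs to above 100 CPM in ESCs, while *Aebp2* stays within the same range in most conditions and *Ezh1* is lowest in OKMS E-CAD- 2NG- cells.

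Of the catalytic pair, *Ezh2* was the more abundant by reads in every library. *Ezh2* had 11.3 to 23.2 CPM in MEFs (median 14.7) and 56.7 to 150 CPM in ESCs (median 66.4). The groups did not overlap, and the log2 fold change was 2.29 ± 0.21 (SE, FDR = 3.7e-12). *Ezh1* had 2.97 to 9.31 CPM in MEFs (median 6.54) and 10.4 to 29.1 CPM in ESCs (median 18.04). These groups did not overlap either, although the TNG OKMS ESCs, at 10.7 and 10.4 CPM, came close to the highest MEF library, and the log2 fold change was 1.52 ± 0.26 (FDR = 3.7e-06). Both catalytic genes were therefore higher in ESCs.

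The core partners rose as well. *Eed*, whose product reads the methyl mark that the complex makes, had 17.2 to 32.9 CPM in MEFs (median 22.4) and 105 to 223 CPM in ESCs (median 120). *Suz12*, whose product holds the complex together, had 17.1 to 48.1 CPM in MEFs (median 19.97) and 61.3 to 169 CPM in ESCs (median 76.3). Neither gene overlapped between the groups. The log2 fold change was 2.54 ± 0.16 for *Eed* (FDR = 9.9e-17) and 1.89 ± 0.18 for *Suz12* (FDR = 8.2e-12).

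The largest changes were those of 2 accessory genes. *Jarid2* had 7.12 to 18.9 CPM in MEFs (median 15.6) and 168 to 368 CPM in ESCs (median 204), with a log2 fold change of 4.01 ± 0.23 (FDR = 2.2e-18). *Mtf2* had 7.47 to 21.3 CPM in MEFs (median 13.1) and 109 to 284 CPM in ESCs (median 143), with a log2 fold change of 3.51 ± 0.22 (FDR = 6.1e-17). For neither gene did the groups overlap.

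The other accessory gene of each form stood out less clearly between MEFs and ESCs. *Phf19*, the other Polycomb-like gene, had 0.186 to 5.43 CPM in MEFs and 1.51 to 14.6 CPM in ESCs, so that the groups overlapped, and its log2 fold change was 2.13 ± 0.69 (FDR = 0.0072). That call was lost when all replicate 1 libraries were left out (FDR = 0.105) and when all replicate 2 libraries were left out (FDR = 0.089). *Aebp2*, the other PRC2.2 gene, had 12.6 to 49.6 CPM in MEFs and 15.2 to 96.9 CPM in ESCs, with a log2 fold change of 0.21 ± 0.23 (FDR = 0.46).

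Across the 20 conditions the genes differed in how widely their means ranged. The highest condition mean was 24.3-fold the lowest for *Jarid2*, 16.4-fold for *Mtf2*, 12.04-fold for *Suz12*, 9.28-fold for *Eed*, 7.34-fold for *Ezh2*, 6.37-fold for *Ezh1*, and 3.40-fold for *Aebp2*. For *Phf19*, whose means rest on few reads, it was 28.9-fold. Ordered by mean, most neighbouring conditions overlapped in their libraries: 15 of 19 neighbouring pairs did so for *Jarid2*, 16 for *Eed* and *Mtf2*, 18 for *Suz12* and *Ezh1*, and all 19 for *Ezh2*, *Aebp2*, and *Phf19*. For every gene but *Phf19* and *Aebp2*, the 3 conditions with the lowest means were MEFs or OKMS E-CAD- 2NG- cells.

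The first sorted cells, E-CAD+ 2NG-, already had more of 6 PRC2 genes than the MEFs of the same cassette. In MKOS 2NG- cells *Ezh1*, *Ezh2*, *Eed*, *Suz12*, *Jarid2*, and *Mtf2* were called higher than in MKOS MEFs, and 27% of all transcripts were called, 15% as higher. *Jarid2* had 45.3, 50.9, and 97.3 CPM against 15.3 and 18.6 CPM, a log2 fold change of 1.90 ± 0.36 (FDR = 8.4e-05). *Suz12* had 52.6, 56.2, and 51.0 CPM against 17.1 and 21.5 CPM, a log2 fold change of 1.44 ± 0.31 (FDR = 0.00042). All sorted libraries lay above both MEF libraries for these 2 genes. The other 4 log2 fold changes were 1.42 for *Ezh1*, 1.41 for *Ezh2*, 1.07 for *Eed*, and 1.23 for *Mtf2*, with FDR values of 0.0022 to 0.015, while *Aebp2* stood at -0.06 ± 0.38 and *Phf19* at -0.43 ± 1.10. The calls of *Ezh1*, *Ezh2*, and *Mtf2* were lost without MKOS MEF replicate 1, and that of *Ezh1* also without MKOS MEF replicate 2. The log2 fold change of *Mtf2* was 0.67 without MKOS MEF replicate 1 and 1.98 without MKOS MEF replicate 2.

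OKMS E-CAD+ 2NG- cells gave the same 6 calls against OKMS MEFs, where 29.2% of transcripts were called and 15.7% were higher. *Ezh1* had 15.7, 21.3, and 12.1 CPM against 2.97 and 6.87 CPM, a log2 fold change of 1.82 ± 0.46 (FDR = 0.002). *Ezh2* had 41.4, 70.3, and 34.7 CPM against 11.3 and 18.9 CPM, a log2 fold change of 1.78 ± 0.36 (FDR = 0.00019). In both cases the sorted libraries lay above the MEF libraries. *Jarid2* changed by 1.81 ± 0.36 and *Mtf2* by 1.27 ± 0.35. The calls of *Eed*, at 0.70 ± 0.26 (FDR = 0.042), and *Suz12*, at 0.83 ± 0.30 (FDR = 0.032), were lost under most other settings. OKMS MEF replicate 2 had 48.1 CPM of *Suz12*, the highest level in MEFs, and the log2 fold change of *Suz12* was 1.52 without it and 0.36 without OKMS MEF replicate 1. DESeq2 called *Ezh1*, *Ezh2*, *Jarid2*, and *Mtf2* but neither of these 2 genes. Without OKMS MEF replicate 1 the calls of *Ezh1* (1.44, FDR = 0.068) and *Mtf2* (0.996, FDR = 0.106) were lost as well. Proliferation genes rose over the same steps. Of 16 such markers, 16 were called higher in ESCs than in MEFs, 13 in MKOS 2NG- cells, and 15 in OKMS E-CAD+ 2NG- cells, and their summed level was 866 to 1641 CPM in MEFs, 2397 to 2953 CPM in MKOS 2NG- cells, 2536 to 2858 CPM in OKMS E-CAD+ 2NG- cells, and 3130 to 3942 CPM in ESCs. Of the 10 fibroblast markers, 9 were called lower than in MEFs in both kinds of 2NG- cells, and 3 of 5 tested blood cell markers were called higher in MKOS but 0 in OKMS 2NG- cells. The part of these markers in the PRC2 changes was not tested. The comparisons of ESCs and of each 2NG- population share MEF libraries.

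**Figure D2:**
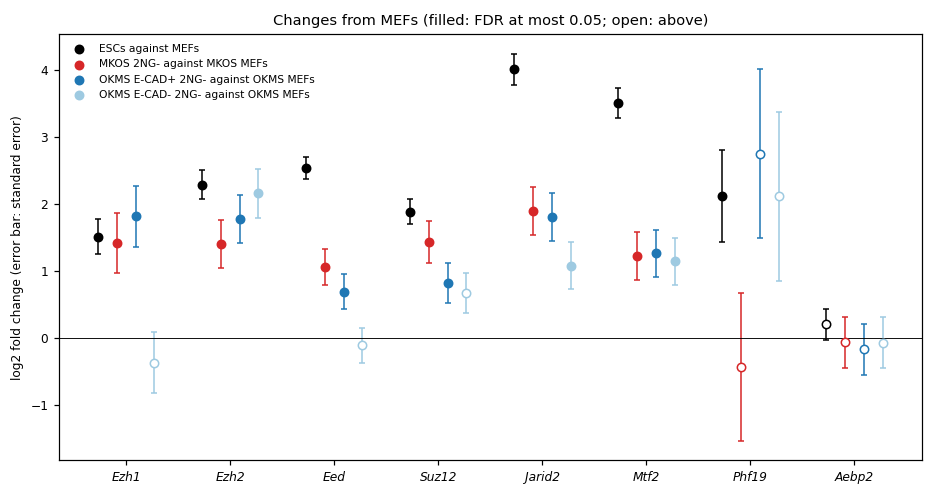
Log2 fold change (vertical axis) of each PRC2 gene (horizontal axis) from MEFs to ESCs, to MKOS 2NG-, to OKMS E-CAD+ 2NG-, and to OKMS E-CAD- 2NG- cells, with bars for the standard error. Filled points have an FDR of at most 0.05. The 2 OKMS comparisons use the same MEF libraries. *Ezh1* and *Eed* are at -0.36 and -0.10 in E-CAD- cells, where *Ezh2* is at 2.16.

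The rise up to the E-CAD+ *Nanog*-GFP- cells was not called different between the cassettes for any of the 8 genes by edgeR. The change from MEFs to the average of 2NG- and 3NG- cells, taken as MKOS minus OKMS, was 0.81 ± 0.33 for *Eed* (FDR = 0.25), 1.03 ± 0.37 for *Suz12* (FDR = 0.18), and between -0.23 and 0.47 for the other genes except *Phf19*. *Eed* and *Suz12* had an unadjusted p under 0.05, DESeq2 called 0 genes, and 1.43% of all transcripts were called.

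When the cassettes were compared directly within a gate, E-CAD+ 2NG- cells gave 0 calls among the PRC2 genes, with 0 genes at an unadjusted p under 0.05 and 0 DESeq2 calls, while 5.07% of transcripts were called, 2.84% as higher and 2.23% as lower in MKOS. *Eed* had 40.8, 46.2, and 47.97 CPM in MKOS and 49.1, 41.6, and 40.7 CPM in OKMS 2NG- cells. *Suz12* had 52.6, 56.2, and 51.0 CPM in MKOS and 42.1, 60.6, and 57.1 CPM in OKMS. The groups overlapped for both genes, and the log2 differences were -0.06 ± 0.23 and -0.09 ± 0.26.

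In E-CAD+ 3NG- cells, *Eed* and *Jarid2* were higher in MKOS than in OKMS, against 2.17% of transcripts called and 1.38% called as higher. *Eed* had 79.7, 96.6, and 101 CPM in MKOS and 44.2, 38.6, and 61.2 CPM in OKMS 3NG- cells, a log2 difference of 0.82 ± 0.23 (FDR = 0.045). *Jarid2* had 86.0, 116, and 161 CPM in MKOS and 56.0, 42.4, and 58.4 CPM in OKMS, a log2 difference of 1.08 ± 0.30 (FDR = 0.042). Neither gene overlapped between the cassettes. *Suz12* did not overlap either, with 76.9, 92.1, and 131 CPM in MKOS and 61.2, 45.7, and 55.3 CPM in OKMS, but its log2 difference of 0.76 ± 0.26 had an FDR of 0.13. *Ezh2* and *Ezh1* stood at 0.16 ± 0.30 and 0.19 ± 0.37.

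These 2 calls were close to the threshold. The call of *Eed* was kept in 1 of 6 fits that left out a library of the comparison, the one without OKMS E-CAD+ 3NG- replicate 3, and that of *Jarid2* in 1 of 6, the one without MKOS E-CAD+ 3NG- replicate 1. The log2 difference stayed between 0.66 and 1.06 for *Eed* and between 0.84 and 1.26 for *Jarid2* in all fits. DESeq2 called both genes. In a fit of only the libraries compared neither was called (FDR = 0.112 for *Eed* and 0.057 for *Jarid2*), *Eed* was not called without the filter on low counts (FDR = 0.058), and *Jarid2* was not called without the 7 sorted libraries that the averages in the study's supplementary table leave out (FDR = 0.084). Marker sums of other cell states differed between the same libraries. The pluripotency markers summed to 7752 to 10037 CPM in MKOS and 1582 to 5336 CPM in OKMS 3NG- cells, with 4 of 10 called higher in MKOS. The fibroblast markers summed to 624 to 1232 and 170 to 328 CPM, with 1 of 10 called higher in MKOS, and the blood cell markers to 44.7 to 145 and 8.71 to 32.6 CPM, with *Hbb-b1* at 0 in both and 0 of 5 tested called. Their part in the differences of *Eed* and *Jarid2* was not tested.

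Among *Nanog*-GFP+ cells the cassettes were not called different for any PRC2 gene by edgeR, while 0.685% of transcripts were called. *Eed* had 131, 107, and 152 CPM in MKOS and 87.5, 65.7, and 86.3 CPM in OKMS 3NG+ cells, a log2 difference of 0.53 ± 0.23 (FDR = 0.32). *Jarid2* had 167, 97.4, and 149 CPM in MKOS and 126, 101, and 117 CPM in OKMS, with overlapping libraries and a log2 difference of 0.09 ± 0.29. *Eed* and *Phf19* had an unadjusted p under 0.05, and DESeq2 called 0 genes.

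**Figure D3:**
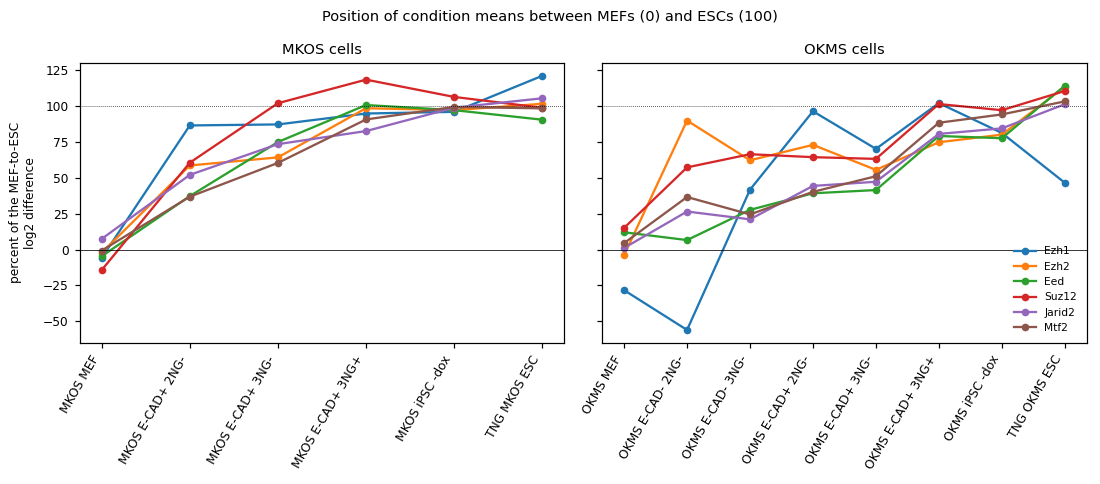
Mean log2 CPM of 6 PRC2 genes as a position between the mean of the 6 MEF libraries (0) and the mean of the 8 ESC libraries (100), in MKOS conditions (left) and OKMS conditions (right); *Phf19*, with few reads, and *Aebp2*, with almost no MEF-to-ESC difference, are left out. The lines join the conditions in an order chosen for the drawing, which is neither a measured time course nor a route of cells. No error is drawn. In E-CAD+ 3NG- cells the genes lie between 60.3% (*Mtf2*) and 102% (*Suz12*) in MKOS and between 41.4% (*Eed*) and 70.0% (*Ezh1*) in OKMS. In OKMS E-CAD- 3NG- cells they lie between 21.0% (*Jarid2*) and 66.3% (*Suz12*).

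Along the gates of each cassette, few PRC2 genes were called at any single step. From MKOS 2NG- to 3NG- cells *Eed* was the only PRC2 gene called, where 0.39% of transcripts were called. Its libraries went from 40.8 to 47.97 CPM up to 79.7 to 101 CPM without overlap, a log2 fold change of 0.95 ± 0.23 (FDR = 0.041). That call was lost whenever 1 of the 6 libraries was left out, although the log2 fold change stayed between 0.90 and 1.02. *Suz12*, *Jarid2*, and *Mtf2* stood at 0.82 ± 0.26, 0.81 ± 0.29, and 0.84 ± 0.30, with an unadjusted p under 0.05 and FDR values of 0.25 to 0.40. From OKMS E-CAD+ 2NG- to 3NG- cells edgeR called 0 PRC2 genes, with 0 at an unadjusted p under 0.05 and 0 DESeq2 calls, and 0.0384% of transcripts were called. *Eed* went from 49.1, 41.6, and 40.7 CPM to 44.2, 38.6, and 61.2 CPM, a log2 fold change of 0.08 ± 0.23. Whether this step differs between the cassettes was not tested.

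At the gain of *Nanog*-GFP, 3 PRC2 genes were called higher in OKMS cells by edgeR and 4 by DESeq2. From OKMS E-CAD+ 3NG- to 3NG+ cells *Jarid2* went from 56.0, 42.4, and 58.4 CPM to 126, 101, and 117 CPM, a log2 fold change of 1.35 ± 0.30 (FDR = 0.0042). *Mtf2*, at 34.0, 40.0, and 69.2 CPM before and 131, 80.4, and 90.9 CPM after, changed by 1.29 ± 0.30 (FDR = 0.0058), and *Eed* by 0.95 ± 0.23 (FDR = 0.0088). In none of the 3 genes did the libraries overlap, which was not counted over all transcripts. Of all transcripts 6.26% were called, 3.06% as higher and 3.21% as lower. The *Jarid2* call was kept with each of the 6 libraries left out, whereas those of *Eed* and *Mtf2* were lost without OKMS E-CAD+ 3NG- replicate 1 or 2 and without OKMS 3NG+ replicate 1. The *Jarid2* call was lost when all replicate 1 libraries (1.296) or all replicate 2 libraries (1.325) were left out. *Suz12*, at 61.2, 45.7, and 55.3 CPM before and 103, 65.0, and 68.7 CPM after, did not overlap either. Its log2 fold change of 0.77 ± 0.26 had an FDR of 0.069 by edgeR, and it was called by DESeq2 (0.76, FDR = 0.042), without the same 7 sorted libraries (0.98, FDR = 0.046), and without OKMS 3NG+ replicate 2 (0.91, FDR = 0.048).

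In MKOS cells the same step gave 1 call by edgeR and 2 by DESeq2, and 1.58% of transcripts were called by edgeR. *Mtf2* went from 56.5, 58.2, and 73.1 CPM to 137, 111, and 102 CPM, a log2 fold change of 1.07 ± 0.29 (FDR = 0.050), just inside the threshold. That call was lost when any 1 of the 6 libraries was left out and kept in the 6 alternative fits. *Eed*, at 0.66 ± 0.23 (FDR = 0.12), was called by DESeq2 only (0.67, FDR = 0.044). *Ezh2* stood at 0.78 ± 0.30 (FDR = 0.17) and was not called. Both had an unadjusted p under 0.05. *Jarid2* stood at 0.36 ± 0.29 in MKOS cells (FDR = 0.587) and was not called. The difference of this step between the cassettes, tested as an interaction, was called for 0 PRC2 genes by edgeR and by DESeq2 and for 0.0256% of transcripts. It was -0.99 ± 0.42 for *Jarid2* (MKOS minus OKMS), the only member with an unadjusted p under 0.05 (FDR = 0.56). Of the 10 pluripotency markers, 6 were called higher over this step in OKMS cells and 0 in MKOS cells, and their part in the PRC2 changes was not tested.

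In OKMS E-CAD- cells of the 2NG- gate, *Ezh2* was higher than in MEFs and *Ezh1* was not called. E-CAD is the epithelial cadherin encoded by *Cdh1*, which fibroblasts gain when they take on an epithelial state. In OKMS E-CAD- 2NG- cells 3 PRC2 genes were higher than in OKMS MEFs, namely *Ezh2*, *Jarid2*, and *Mtf2*, where 21.8% of transcripts were called, 11.7% as higher and 10.1% as lower. *Ezh2* had 55.8, 59.1, and 92.8 CPM against 11.3 and 18.9 CPM in the MEFs, a log2 fold change of 2.16 ± 0.37 (FDR = 2.4e-05). *Ezh1* had 4.93, 1.72, and 4.57 CPM, from 26, 5, and 28 reads, against 2.97 and 6.87 CPM, a log2 fold change of -0.36 ± 0.45 (FDR = 0.62). *Eed*, with 23.5, 22.7, and 37.5 CPM against 25.8 and 32.9 CPM, stood at -0.10 ± 0.26. The *Jarid2* call, at 1.08 ± 0.35, and the *Mtf2* call, at 1.15 ± 0.35, were lost without replicate 3 of these cells and without OKMS MEF replicate 1, and the *Jarid2* call also without OKMS MEF replicate 2. Without the same 7 sorted libraries, only *Ezh2* was called.

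Set against OKMS E-CAD+ cells of the same gates, averaged over 2NG- and 3NG-, *Ezh1*, *Eed*, and *Jarid2* were higher in E-CAD+ cells. In this comparison 7.08% of transcripts were called, 4.69% as higher and 2.39% as lower. *Ezh1* had 6.83 to 21.3 CPM in the 6 E-CAD+ libraries (median 16.01) and 1.72 to 11.4 CPM in the 6 E-CAD- libraries (median 6.48). The groups overlapped through E-CAD+ 3NG- replicate 3, and the log2 difference was 1.35 ± 0.28 (FDR = 0.0012). *Jarid2* had 36.1 to 66.8 CPM in E-CAD+ and 19.7 to 47.9 CPM in E-CAD- libraries, a log2 difference of 0.88 ± 0.21 (FDR = 0.0062). The calls of *Ezh1* and *Jarid2* were kept with each of the 12 libraries left out. Both were lost when all replicate 1 libraries (1.46 for *Ezh1* and 0.81 for *Jarid2*) or all replicate 2 libraries (0.94 and 0.90) were left out. *Eed* differed by 0.56 ± 0.16 (FDR = 0.027), a call that was lost when any of 5 of the 12 libraries was left out, without the filter on low counts, without the 7 libraries, and in a fit of only the libraries compared (FDR = 0.15). *Ezh2* stood at -0.26 ± 0.21, *Suz12* at 0.05 ± 0.18, and *Aebp2* at -0.23 ± 0.24.

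The estimated difference of *Ezh1* was larger in the 2NG- gate, but whether it differs between the gates was not tested. In the 2NG- gate it was 2.19 ± 0.41 (FDR = 0.0011), and 2.38% of transcripts were called. This call was kept with each of the 6 libraries left out but not in a fit of only these libraries (FDR = 0.071). It was also lost when all replicate 1 libraries (2.476) or all replicate 2 libraries (1.719) were left out. In the 3NG- gate the *Ezh1* difference was 0.52 ± 0.39 (FDR = 0.62), where edgeR called 0 PRC2 genes and 1.75% of transcripts. DESeq2 called *Jarid2* there, and *Jarid2* and *Mtf2* had an unadjusted p under 0.05. Within the E-CAD- cells *Ezh1* had 4.93, 1.72, and 4.57 CPM in the 2NG- gate and 10.9, 8.02, and 11.4 CPM in the 3NG- gate without overlap, but the log2 fold change of 1.37 ± 0.41 had an FDR of 0.45. This step gave 0 calls among the PRC2 genes by edgeR and by DESeq2, *Ezh1* and *Eed* had an unadjusted p under 0.05, and 0.0448% of transcripts were called. These comparisons within gates were added after the values had been seen. The E-CAD- cells differed from the E-CAD+ cells in other markers too. The sum of the 8 epithelial markers was 697 to 1152 CPM in E-CAD+ and 77.8 to 224 CPM in E-CAD- libraries, with 8 of 8 called, and that of the 10 pluripotency markers 788 to 5336 and 247 to 278 CPM, with 9 of 10 called. The 10 fibroblast markers summed to 100 to 328 and 612 to 975 CPM, with 7 of 10 called lower in E-CAD+ cells. The sums of the 16 proliferation markers overlapped, at 2243 to 3174 and 2275 to 3239 CPM. Of these markers *Mki67* did not overlap, with 50.4 to 102 CPM in E-CAD+ and 107 to 172 CPM in E-CAD- libraries. The other proliferation markers are not given singly. The part of these states in the *Ezh1* difference was not tested.

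Since both genes are read in the same library, the ratio of *Ezh2* to *Ezh1* reads needs no scaling between libraries. It was 1.25 to 3.81 in the 6 MEF libraries (median 2.75), 2.35 to 13.95 in the 8 ESC libraries (median 3.56), and 1.95 to 6.17 in the 10 iPSC libraries (median 3.35). In OKMS E-CAD- 2NG- cells it was 11.3, 34.4, and 20.3. In OKMS E-CAD- 3NG- cells it was 3.52, 4.17, and 5.74, inside the range of the ESC libraries. Among the other libraries only TNG OKMS ESC replicate 1, at 13.95, passed 7.45. The mean log2 ratio of ESCs exceeded that of MEFs by 0.77, which did not reach the threshold (exact permutation test, two-sided p = 0.060, n = 8 and 6, smallest possible p = 0.000333). It passed the threshold without E14 replicate 2, TNG ESC replicate 2, or OKMS MEF replicate 1. MKOS and OKMS E-CAD+ *Nanog*-GFP- cells had mean log2 ratios of 1.43 and 1.55, a difference of -0.12 (exact permutation test within gates, two-sided p = 0.71, n = 6 and 6). Averaged over both gates, OKMS E-CAD- cells, at 3.22, exceeded the OKMS E-CAD+ cells by 1.68 (exact permutation test within gates, two-sided p = 0.025, n = 6 and 6, smallest possible p = 0.005), a test that was added after the values had been seen. The test no longer passed without OKMS E-CAD- 2NG- replicate 2 (1.30) or 3 (1.45) or without OKMS E-CAD+ 3NG- replicate 2 (1.44). The values differed by gate, which was not tested. The mean log2 ratio was 4.32 in E-CAD- and 1.55 in E-CAD+ cells of the 2NG- gate, without overlap. In the 3NG- gate it was 2.13 and 1.55, and the E-CAD+ libraries, at ratios of 2.58, 1.30, and 7.45, lay on both sides of the E-CAD- ones.

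**Figure D4:**
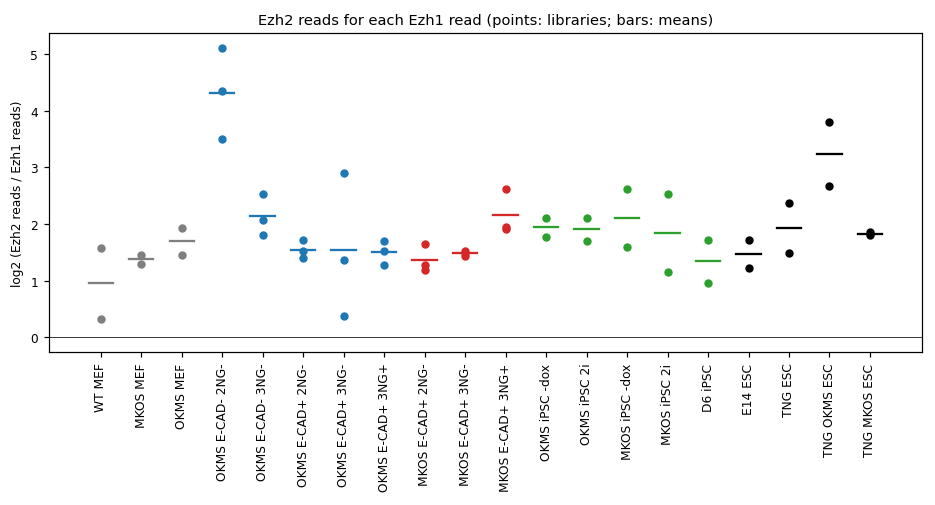
Log2 ratio of *Ezh2* to *Ezh1* reads (vertical axis) in each of the 48 libraries by condition (horizontal axis), with points for libraries and bars for condition means. OKMS E-CAD- 2NG- cells have a mean log2 ratio of 4.32, and the next-highest condition, TNG OKMS ESCs, has 3.23 from 2 libraries.

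From *Nanog*-GFP+ cells to iPSCs without doxycycline no PRC2 gene was called, in comparisons of 2 with 3 libraries. Between 3NG+ cells and iPSCs without doxycycline edgeR called 0 of the 8 genes for MKOS, where 2.14% of transcripts were called (1.32% as lower), and 0 for OKMS, where 0.614% were called. In neither comparison did a gene have an unadjusted p under 0.05, and DESeq2 called 0. The log2 fold changes lay between -0.47 and 0.63 for all genes but *Phf19*, which stood at 2.05 ± 1.07 for MKOS and 0.82 ± 1.04 for OKMS. The value of 0.63 ± 0.32 was that of *Jarid2* in MKOS cells (FDR = 0.36), so changes of this size could not be told from none. TNG MKOS and TNG OKMS ESCs against the iPSCs of the same cassettes also gave 0 calls by edgeR, 0 at an unadjusted p under 0.05, and 0 by DESeq2, while 1.4% of transcripts were called. The largest of these differences among the well-covered genes was that of *Jarid2*, at 0.47 ± 0.25 (FDR = 0.41). *Jarid2* had 190 and 368 CPM in TNG MKOS ESCs and 321 and 199 CPM in TNG OKMS ESCs. In the iPSCs it had 238 and 196 CPM for MKOS and 158 and 107 CPM for OKMS.

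In 2i medium, which contains kinase inhibitors that hold pluripotent cells in a naive state, *Suz12* was higher than in iPSCs without doxycycline, and 4.34% of transcripts were called, 1.89% as higher. *Suz12* had 284, 180, 110, and 105 CPM in the MKOS and OKMS iPSCs in 2i, and 117, 75.2, 64.3, and 86.8 CPM without doxycycline. The log2 fold change was 0.79 ± 0.22 (FDR = 0.031), and the groups overlapped. This call was lost when MKOS iPSC replicate 1 in 2i, which had the highest *Suz12* level of all libraries, was left out, as it was for 4 of the other 7 libraries, and the log2 fold change stayed between 0.63 and 0.95. *Jarid2* went the other way, with 146, 141, 86.8, and 81.2 CPM in 2i and 238, 196, 158, and 107 CPM without doxycycline, at -0.73 ± 0.25 (FDR = 0.095), and *Phf19* had 1.95, 0, 1.06, and 1.76 CPM in 2i and 10.4, 1.42, 6.80, and 12.1 CPM without, at -2.76 ± 0.89 (FDR = 0.070). DESeq2 called *Suz12* and *Phf19*. In the iPSC line D6 *Suz12* was at 141 and 144 CPM, *Phf19* at 6.32 and 7.79 CPM, and *Jarid2* at 68.3 and 97.4 CPM. These *Jarid2* levels lay below all 8 ESC libraries (168 to 368 CPM). So did those of the iPSCs in 2i and of the OKMS iPSCs without doxycycline, but not those of the MKOS iPSCs without doxycycline. D6 was not tested against another condition.

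The other genes of the Polycomb system moved in both directions between MEFs and ESCs. PRC1 is the second Polycomb complex, which ubiquitinates histone H2A, and 10 of its 22 genes were called higher in ESCs and 8 lower, with a median log2 fold change of 0.27 against 0.00 over all transcripts, of which 29.6% were called higher and 30.4% lower. *Cbx7*, which encodes a reader of the PRC2 mark, had 0 to 2.15 CPM in MEFs and 46.4 to 180 CPM in ESCs, a log2 fold change of 6.29 ± 0.42, and *Phc1*, a polyhomeotic gene, had 9.50 to 16.8 and 142 to 322 CPM, a log2 fold change of 4.02 ± 0.23. Of 6 other PRC2 genes tested, 2 were higher and 1 lower, a share of calls no higher than that over all transcripts. The larger rise was that of *E130012A19Rik*, a clone name for the PRC2.1 subunit gene *Epop*, from at most 1.99 CPM in MEFs to 53.7 to 214 CPM in ESCs, a log2 fold change of 7.59 ± 0.34. The 3 tested genes of PR-DUB, which removes the PRC1 mark, were all higher (median 1.54), and of the H3K27 demethylases *Kdm6a* was higher and *Kdm6b* lower.

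Genes known as Polycomb targets, which were developmental genes and the cell cycle inhibitor genes *Cdkn2a* and *Cdkn2b*, mostly went the other way. Of 16 genes, 15 were tested, 10 were called lower in ESCs than in MEFs, and 1 was called higher, beside 30.4% of all transcripts called lower and 29.6% higher, with a median log2 fold change of -3.82. With the 4 genes that had no read in 1 of the groups set to a bound of 3 reads over the group, and 1 gene with no read in either left out, the median was -3.84. *Hand2*, a factor of limb and heart development, had 20.6 to 35.4 CPM in MEFs and at most 0.291 CPM in ESCs, a log2 fold change of -8.73 ± 0.79. *Tbx15* had 16.1 to 54.5 CPM in MEFs and at most 3.34 CPM in ESCs, a log2 fold change of -7.07 ± 0.77, and *Tbx5* had 0.186 to 7.55 CPM in MEFs and no reads in ESCs. *Pax6* was the gene called higher, with at most 0.913 CPM in MEFs and 3.22 to 26.4 CPM in ESCs. Several of these targets are normally active in mesenchymal cells, and the fibroblast markers moved with them, and their part in these levels was not tested.

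**Figure D5:**
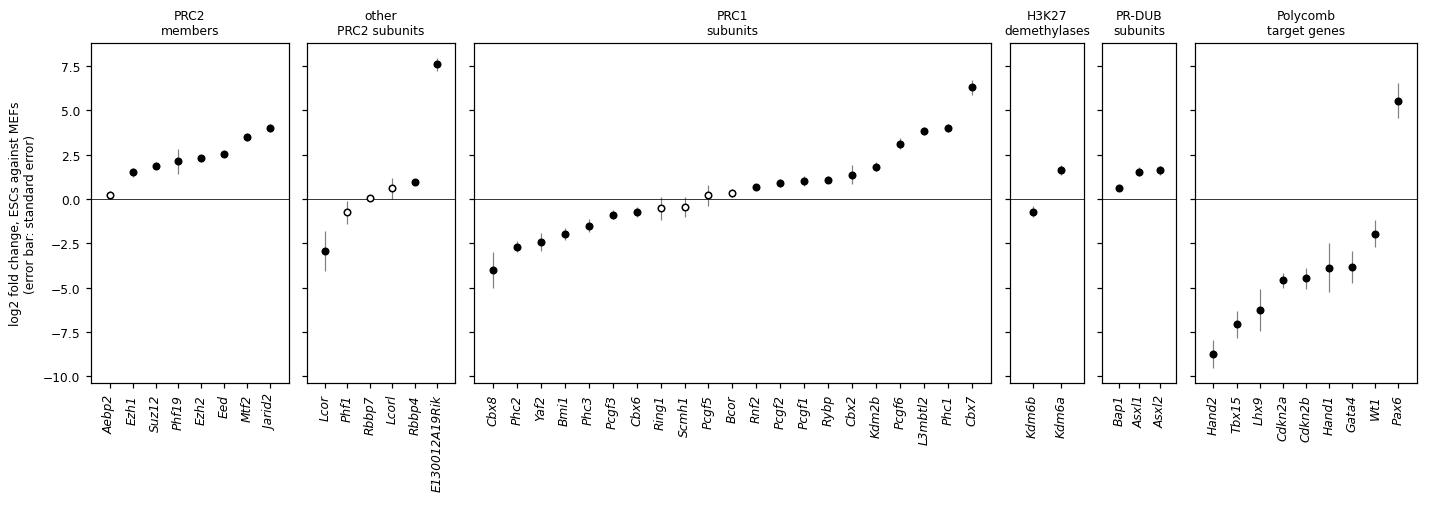
Log2 fold change from MEFs to ESCs (vertical axis) with standard error bars for the 8 PRC2 genes and the genes of 5 other Polycomb lists (horizontal axis, ordered by value within each list). Filled points have an FDR of at most 0.05, and genes with fewer than 3 reads over the MEF or over the ESC libraries are not drawn. The PRC2 genes lie at or above 0.21, the PRC1 genes on both sides of 0, and the target genes below 0 except for *Pax6*.

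Between the cassettes, few genes of these lists were called. The genes tested were 22 of PRC1, 6 other PRC2 genes, 3 of PR-DUB, 2 H3K27 demethylases, and 15 target genes, and 4 of them were called in 2NG- cells, where 5.07% of all transcripts were called, and 1 in 3NG- cells, where 2.17% were. These counts are not far from the shares over all transcripts, and the genes are given as single values. In E-CAD+ 2NG- cells *Cbx7*, *Bcor*, and *Asxl2* were lower in MKOS than in OKMS. *Cbx7* had a median of 8.26 CPM in MKOS and 28.2 CPM in OKMS (FDR = 0.022), *Bcor*, a subunit of a variant PRC1, 8.86 and 28.6 CPM (FDR = 0.0055), and *Asxl2*, a PR-DUB gene, 10.6 and 22.2 CPM (FDR = 0.044). The 3 genes did not overlap between the cassettes. *Tbx15* was higher in MKOS, with 7.45 to 10.5 CPM against at most 0.988 CPM in OKMS (FDR = 0.013), in libraries whose fibroblast markers summed to 482 to 1024 and 100 to 274 CPM. In E-CAD+ 3NG- cells *Rybp*, which encodes another variant PRC1 subunit, was the only gene called, with 53.6 to 64.4 CPM in MKOS and 21.4 to 32.5 CPM in OKMS, a log2 difference of 1.02 ± 0.28 (FDR = 0.044).

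The PRC2 genes varied together to different degrees over the 20 condition means, which are not independent of one another because conditions share cell states and scaling. Pearson's r of the TMM-scaled log2 CPM was 0.958 between *Eed* and *Jarid2*, 0.938 between *Jarid2* and *Mtf2*, 0.937 between *Eed* and *Mtf2*, and 0.912 between *Suz12* and *Mtf2*. It was 0.577 between the catalytic genes *Ezh1* and *Ezh2*, and 0.087 between *Ezh1* and *Aebp2*. *Phf19* and *Aebp2* had the lowest value, -0.268. Among all tested transcripts, the most alike by the same measure was *Msh6* for *Mtf2* (0.992), *Mkrn1* for *Jarid2* (0.987), *Nfatc2ip* for *Suz12* (0.961), *Rcor2* for *Ezh2* (0.959), and *Arhgef18* for *Ezh1* (0.891). *Dnmt3l*, which encodes a partner of the DNA methyltransferases, was among the 3 most alike for both *Eed* (0.967) and *Jarid2* (0.974). *Phf19* and *Aebp2* reached only 0.840 with *Ccdc164* and 0.716 with *Wasl*.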

How the data were processed

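The 48 STRT libraries were analysed from the read counts per transcript that the authors deposited. Per the file headers, a read that matched more than one place was given to the most 5′ exonic match, repeats were counted apart, and the counts were not normalised. The submitters' processing notes name Bowtie 0.12.7 and mm10. The study's methods name an older mouse build, but 99.5% of 20607 transcripts shared with RefSeq lay within their GRCm38 gene or at most 200 bases before it, so GRCm38 was used. Sums of uniquely positioned reads, another column of the deposited table, were used only to check the members, of whose reads 92.6% (*Suz12*) or more had a unique position.

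Counts were fitted with edgeR 4.0.16 in R 4.3.3. All 48 libraries entered one quasi-likelihood model with a coefficient for each of the 20 conditions, TMM scaling (factors 0.852 to 1.23), and filterByExpr by condition, which kept 15630 of 24264 transcripts. A call required a Benjamini-Hochberg FDR of at most 0.05 over these transcripts. The SE was computed from the log2 fold change and its F statistic. DESeq2 1.42.0 was an alternative. Levels are CPM without TMM, and ratios were compared by exact permutation tests that went through every arrangement of the labels. Alternatives were DESeq2 size factors, no filter beyond 1 read, a replicate block, leaving out 7 sorted libraries that the supplementary averages omit, fits of only the libraries compared, and leaving out libraries 1 at a time or by replicate number. Fits without 1 library kept the dispersion of the full fit. The scripts were tested on simulated data.

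The 8 genes and all lists were chosen with earlier results of these data known. Of the other Polycomb lists, up to 4 genes called in each direction were named by the size of their log2 fold change between ESCs and MEFs and up to 3 between the cassettes. Likeness was Pearson's r over condition means, and the 3 most alike transcripts of each gene were considered. The comparisons of E-CAD+ with E-CAD- cells within gates, of E-CAD- 3NG- with 2NG- cells, and of the ratio in E-CAD- cells were added after the values had been seen. A few genes that these rules would name are not reported here.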

Additional observations from a re-analysis of the deposited data

Results flagged for a closer look

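In 27 sets of values, each for a gene or the *Ezh2* to *Ezh1* ratio in MEFs, ESCs, or iPSCs, 5 values far from the rest were picked out. The rule picks about 1 in 20 sets of normally distributed values from a single population. CPM pooled over several conditions need not follow that, so the share expected by chance is not known here. *Suz12* in OKMS MEF replicate 2 was at 48.1 CPM, while the next of the 6 MEF libraries was at 28.2 CPM. *Phf19* in WT MEF replicate 1 was at 5.43 CPM, and the next MEF library at 2.05 CPM. TNG OKMS ESC replicate 1 stood apart from the other ESC libraries for *Eed*, at 223 CPM against 151 CPM, and for *Aebp2*, at 96.9 CPM against 38.4 CPM. MKOS iPSC replicate 1 in 2i had 284.5 CPM of *Suz12*, and the next of the 10 iPSC libraries 180 CPM.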

How the results depend on the processing

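For 92 comparisons of single PRC2 genes, 1518 values were recomputed under other settings. Uncalled comparisons with a log2 fold change no larger in size than its SE were left out, so reversals of such small differences were not counted. Of the 1518 values, 1355 kept their direction and side of the threshold, 130 were no longer called, 27 became called, and 6 reversed. Of 34 calls, 17 were kept with every single library left out and 21 in all 6 alternative fits. The number of PRC2 genes called moved by more than 1.5 times in the following fits, and the cause was not tested. Without the low-count filter it was 1 for MKOS against OKMS 3NG- cells, 3 for iPSCs in 2i against -dox, and 2 for OKMS E-CAD+ against E-CAD- 3NG- cells. Without the 7 omitted libraries it was 1 for OKMS E-CAD- 2NG- cells against MEFs, 1 for MKOS against OKMS 3NG- cells, 0 for MKOS 3NG- against 2NG- cells, 3 for 2i, 2 for E-CAD+ against E-CAD- in the 2NG- gate, and 1 in the 3NG- gate. With only the libraries compared it was 0 for MKOS against OKMS 3NG- cells, 1 for OKMS 3NG+ against 3NG- cells, 0 for 2i, and 0 for E-CAD+ against E-CAD- 2NG- cells. DESeq2 called 2 for MKOS 3NG+ against 3NG- cells, 2 for 2i, and 2 and 1 for E-CAD+ against E-CAD- in the 2NG- and 3NG- gates. Without the 7 libraries the log2 ratio of *Ezh2* to *Ezh1* reads differed by 0.13 between the cassettes, a reversal, and by 1.90 between E-CAD- and E-CAD+ cells (exact permutation test, two-sided p = 0.056).

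With libraries or replicate numbers left out, the PRC2 genes called ranged from 6 to 7 for ESCs against MEFs, 2 to 6 for MKOS and 2 to 6 for OKMS 2NG- cells against MEFs, 1 to 3 for OKMS E-CAD- 2NG- cells against MEFs, 0 to 1 for MKOS against OKMS 3NG- cells, 0 to 3 for E-CAD+ against E-CAD- cells, 0 to 0 for MKOS 3NG- against 2NG- cells, 0 to 1 for MKOS and 0 to 4 for OKMS 3NG+ against 3NG- cells, 0 to 3 for 2i, and 0 to 2 and 0 to 1 for E-CAD+ against E-CAD- in the 2NG- and 3NG- gates. The reversals lay among values that were not called. *Jarid2* between the cassettes in 2NG- cells ranged from -0.11 to 0.71, *Phf19* there from -1.80 to 0.14, *Ezh2* from OKMS 2NG- to 3NG- cells from -0.82 to 0.19, *Phf19* in the interaction of the *Nanog*-GFP step from -2.29 to 0.14, including 0.0059 without replicate 3, and *Phf19* in TNG ESCs against iPSCs from -2.09 to 0.34. The difference in the log2 ratio of *Ezh2* to *Ezh1* ranged from 0.534 to 0.901 between ESCs and MEFs, from -0.355 to 0.150 between the cassettes, and from 1.30 to 1.96 between OKMS E-CAD- and E-CAD+ cells.

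The replicate numbers were not taken as pairs, since neither the labels nor every pair of libraries tied them together. Deviations of same-numbered libraries from their condition means correlated at 0.104 on average over 84 pairs (-0.059 to 0.444, with 36 over 0.1). With the replicate number as a block, 3 PRC2 genes were called for 2i, 2 for E-CAD+ against E-CAD- 2NG- cells, where *Eed* was added (0.82, FDR = 0.031), and 1 for 3NG- cells, which was *Jarid2* (1.07, FDR = 0.0090).

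The number of transcripts called, which sets the background for the PRC2 genes, stayed within 1.5 times for the comparisons with MEFs. Over the 6 alternative fits it was 234 to 611 (224 as reported) for the difference of the rise between the cassettes, 593 to 1260 (793) for the cassettes in 2NG- cells, 275 to 864 (339) in 3NG- cells, and 96 to 484 (107) in 3NG+ cells. It was 634 to 1593 (1107) for OKMS E-CAD+ against E-CAD- cells, 176 to 843 (372) within 2NG- and 101 to 660 (274) within 3NG- cells, and 0 to 104 (7) for E-CAD- 3NG- against 2NG- cells. For 3NG- against 2NG- cells it was 61 to 237 (61) in MKOS and 0 to 149 (6) in OKMS, for 3NG+ against 3NG- cells 253 to 887 (247) and 428 to 1462 (979), and for their interaction 4 to 163 (4). For iPSCs against 3NG+ cells it was 283 to 799 (335) in MKOS and 58 to 384 (96) in OKMS, for 2i 357 to 1025 (679), and for TNG ESCs against iPSCs 166 to 564 (219). *Phf19*, at few reads, could not show modest differences at this depth.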
